A study of Caenorhabditis elegans with 12 samples.

Results

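The proteasome subunit genes are the 32 genes of the deposited table whose name begins with *pas-*, *pbs-*, *rpn-* or *rpt-* followed by a digit, out of 46739 features in all. The rule uses names alone and no expression value. They comprise 7 *pas* and 7 *pbs* genes of the 20S core, 6 *rpt* genes and 12 *rpn* genes of the 19S cap. *rpn-13*, a ubiquitin receptor of the cap, is listed under its sequence name C56G2.7 and so lies outside the rule. All 32 members passed the filter on low values (at least 0.5 RPKM in at least 4 of 12 libraries), as did 13161 features in all.

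The 26S proteasome is the machine that degrades ubiquitin-tagged proteins in the cytosol and nucleus. Its barrel-shaped 20S core stacks outer rings of alpha subunits, which gate the entrance, on inner rings of beta subunits, some of which carry the protease sites. The 19S cap consists of a base, in which a ring of ATPases unfolds the substrate and threads it into the core, and a lid that removes the ubiquitin chain. Since subunits are needed in fixed proportions, their genes are commonly expressed together, and in *C. elegans* the transcription factor SKN-1A raises many of them when proteasome activity falls short.

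RNA came from whole day 1 adults of PMD216, a strain with the mutations rrf-3(b26) II and rde-1(ne219) V and with the transgenes dat-1p::GFP and dat-1p::sid1-SL2-rde-1. The study's methods write the latter as dat-1p::rde-1::SL2::sid-1 and list further alleles that the labels leave out, namely fem-1(hc17) IV, which feminises worms at the restrictive temperature, and eri-1(mg366) IV and lin-15B(n744) X, which like rrf-3(b26) raise the sensitivity to RNAi. All 3 groups share this background, and each group has 4 libraries labelled as biological replicates. The *rde-1* mutation blocks RNAi, and the *dat-1* promoter returns *rde-1* and adds the dsRNA importer *sid-1* in dopaminergic neurons, so that RNAi was aimed at these few cells while the RNA measured came from every tissue. Worms were fed bacteria with the empty vector (EV), a construct against *cat-1*, the vesicular monoamine transporter gene, or a construct against *cat-2*, the tyrosine hydroxylase gene of dopamine synthesis.

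By totals inferred from the deposited RPKM, the libraries held 18765779 to 21493743 mapped reads. Each RNAi target was higher, not lower, in the libraries that carry its label. *cat-1* was at 0.0547 to 0.139 RPKM in EV against 0.322 to 1.51 RPKM with its own RNAi, and *cat-2* at 0.116 to 0.209 RPKM against 0.728 to 1.90 RPKM. Every direction below therefore holds for the libraries as labelled. Marker lists of germline, sperm, intestine, muscle, hypodermis, neurons and dopaminergic neurons had no gene at 0 in any group mean. *cat-2* RNAi replicate 2 stood apart, with a library quality weight of 0.331 against 0.629 to 1.54 in the other 11 libraries, and values without it are given beside the main ones. One model holds all groups, so this library also enters the SE, p and intervals of *cat-1* RNAi against EV. For that comparison SE and intervals are given with it only.

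RPKM scales the reads of a feature by its length and by the mapped reads of the library. Levels of different genes can thus be compared on this scale as far as the lengths used are right. In the EV libraries, 31 of the 32 members had means between 146 and 349.9 RPKM, a range of 2.40-fold. This placed them above 93.7% to 97.7% of the tested genes, whose median level was 12.4 RPKM against 218 RPKM for the members. The exception was *rpn-6.2*, which lay above 49.8% of the tested genes. Together the members took 0.842% to 0.913% of the mapped reads of a library. Each member other than *rpn-6.2* had 2523 to 12321 reads per library, as recovered from RPKM. This gives a counting error with an SD of 0.0287 at the lowest and 0.0130 at the highest depth on the log2 scale. For *rpn-6.2*, with 315 to 466 reads, this SD was 0.0813 to 0.0668.

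**Figure D1:**
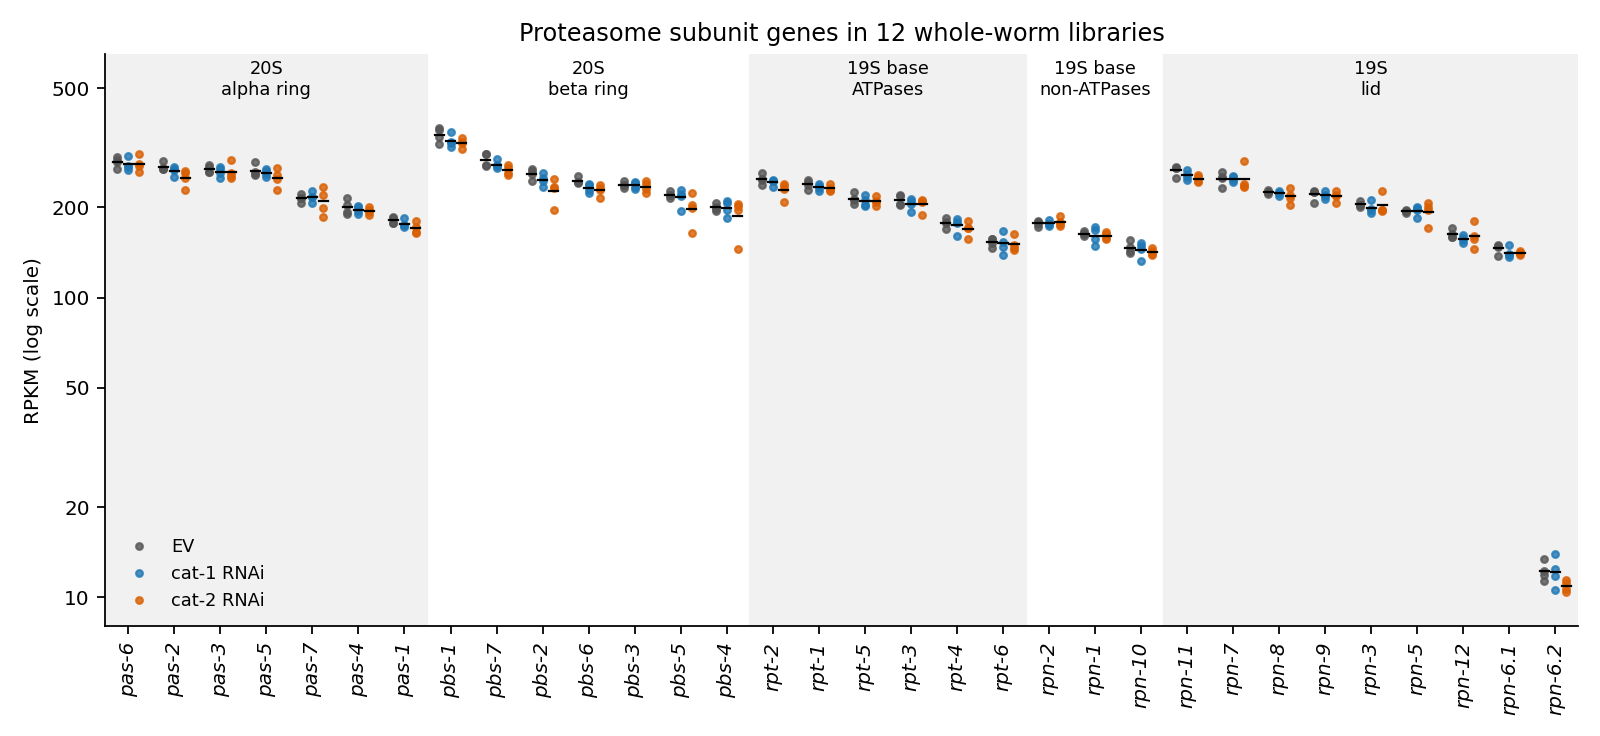
RPKM on a log axis of the 32 proteasome subunit genes, grouped by subcomplex and ordered by EV mean. Points are the 4 libraries of each group (EV grey, *cat-1* RNAi blue, *cat-2* RNAi orange) and black bars are group means. All genes but *rpn-6.2* lie between 133 and 367 RPKM in every library.

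The alpha ring genes had a median EV level of 265 RPKM. The highest was *pas-6* (chromosome V, 5583161 to 5584343, build WBcel235, as for all positions below), with 288, 269, 295 and 285 RPKM in EV replicates 1 to 4. It was at 268, 276, 296 and 274 RPKM in the *cat-1* RNAi libraries and at 279.9, 302, 275 and 262 RPKM in the *cat-2* RNAi libraries, so the groups overlapped. The lowest alpha gene was *pas-1* (chromosome V, 14421566 to 14422618). It was at 178, 177, 184 and 186 RPKM in EV, 175, 172, 185 and 175 RPKM upon *cat-1* RNAi and 172, 181, 164 and 165 RPKM upon *cat-2* RNAi, where all but replicate 2 lay below the EV range.

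The beta ring genes had a median of 246 RPKM in EV, and this ring holds the protease sites in *pbs-1* (caspase-like), *pbs-2* (trypsin-like) and *pbs-5* (chymotrypsin-like). *pbs-1* (chromosome IV, 1708814 to 1709745) was the most abundant of all members, with 367, 325, 363 and 343 RPKM in EV. Its values were 328, 318, 357 and 332 RPKM upon *cat-1* RNAi and 340.2, 328, 312 and 329.6 RPKM upon *cat-2* RNAi. Both RNAi groups reached into the EV range.

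*pbs-2* (chromosome I, 12967216 to 12968280) was at 259, 244, 265 and 268 RPKM in EV and at 235, 251, 259.9 and 245 RPKM upon *cat-1* RNAi. It was at 248, 197, 233 and 232 RPKM upon *cat-2* RNAi. All but replicate 1 lay below the EV range, and replicate 2 was the lowest of all 12. *pbs-5* (chromosome I, 14719167 to 14720477) was at 220.2, 214, 227 and 221 RPKM in EV, 195, 219, 228 and 222 RPKM upon *cat-1* RNAi and 199, 164, 223 and 204 RPKM upon *cat-2* RNAi. Replicate 2 of *cat-2* RNAi again gave the lowest value, and replicate 3 of the same group was as high as EV.

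Of the beta subunits without a protease site, *pbs-4* (chromosome I, 3908747 to 3909701) was the lowest in EV, at 194, 198, 207 and 201 RPKM. It was at 185, 209.8, 206 and 196 RPKM upon *cat-1* RNAi and at 203, 145, 206 and 197 RPKM upon *cat-2* RNAi, where the other 3 libraries were within the EV range. *pbs-6* (chromosome III, 8243122 to 8244092) was at 243, 243, 255 and 241 RPKM in EV. Its values were 239, 229.6, 239 and 223 RPKM upon *cat-1* RNAi and 233, 238, 215 and 229 RPKM upon *cat-2* RNAi, so all 8 RNAi libraries lay below every EV library.

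The ATPase genes of the base had a median of 213 RPKM in EV. *rpt-2* (chromosome V, 6016059 to 6017669) was the highest, with 238, 248, 260.4 and 246 RPKM in EV, 234, 245, 247 and 246 RPKM upon *cat-1* RNAi and 236, 209, 239 and 231 RPKM upon *cat-2* RNAi. Its annotated end overlaps *fos-1* (6.85 RPKM in EV) on the other strand from 6016059 to 6016087. Reads in such a shared stretch cannot be told apart without strand. *rpt-6* (chromosome III, 12370456 to 12372607) was the lowest, with 152, 157, 157 and 147 RPKM in EV. It was at 139, 153, 167 and 148 RPKM upon *cat-1* RNAi and at 146, 144, 163 and 150.0 RPKM upon *cat-2* RNAi, and both groups spread around the EV values.

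The base subunits that are not ATPases had the lowest median, 164 RPKM. The scaffold gene *rpn-2* (chromosome III, 6199184 to 6202594) was at 179.8, 173, 177 and 179.6 RPKM in EV, 176, 173, 182 and 176 RPKM upon *cat-1* RNAi and 173, 187, 179 and 176 RPKM upon *cat-2* RNAi. The ubiquitin receptor gene *rpn-10* (chromosome I, 10730712 to 10732424) was at 141, 143, 156 and 147 RPKM in EV, 133, 145, 152 and 149 RPKM upon *cat-1* RNAi and 140.1, 143, 146 and 139 RPKM upon *cat-2* RNAi. For neither gene did the groups separate.

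The lid genes had a median of 205 RPKM and held both the widest range and the 2 paralogs of *rpn-6*, a lid scaffold. The most abundant was *rpn-11* (chromosome II, 4043055 to 4044546), the deubiquitinase that cuts the chain from the substrate. It was at 271, 250.0, 273 and 271 RPKM in EV, 254, 259.7, 267 and 248 RPKM upon *cat-1* RNAi and 256, 245, 243 and 252 RPKM upon *cat-2* RNAi. *rpn-6.1* (chromosome III, 6959110 to 6962001) was at 150.0, 138, 149 and 147 RPKM in EV, 139.7, 137, 149.6 and 139 RPKM upon *cat-1* RNAi and 143, 139, 141 and 141 RPKM upon *cat-2* RNAi. Its paralog *rpn-6.2* (chromosome III, 8999817 to 9001999) was at 11.8, 11.3, 12.2 and 13.4 RPKM in EV, 10.6, 12.4, 13.9 and 11.8 RPKM upon *cat-1* RNAi and 11.4, 10.4, 11.2 and 10.6 RPKM upon *cat-2* RNAi. The EV level of *rpn-6.1* was 11.97 times that of *rpn-6.2*, and this ratio was between 10.7 and 13.4 in each of the 12 libraries. Reads shared by the paralogs could have been placed on either gene, since the rule for reads with several places is not stated.

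In the order of EV means, few neighbours could be told apart. Of 31 neighbouring pairs, the 4 EV values did not overlap in 6. These were *pbs-1* above *pbs-7*, *pbs-3* above *rpn-8*, *rpn-5* above *pas-1*, *rpn-2* above *rpn-1*, *rpn-12* above *rpt-6*, and *rpn-6.1* above *rpn-6.2*. The order also depends on the feature lengths behind RPKM, which the spread between libraries does not cover. The recovered length was 1057 bases for *pas-1*, against 946 annotated exon bases, and 1710 against 1711 for *rpn-5*. It was 3419 against 3171 for *rpn-1*, 3106 against 3166 for *rpn-2* and 1023 against 801 for *pbs-4*. The 14 core genes had a median of 252 RPKM and the 18 cap genes a median of 199.7 RPKM. *rpn-13*, read under its sequence name, was at 164 ± 6.95 RPKM in EV, 157 ± 5.16 RPKM upon *cat-1* RNAi and 155 ± 4.90 RPKM upon *cat-2* RNAi (SD, n = 4 each), within the range of the members.

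Replicates of 1 group were close to each other. The coefficient of variation (SD as a percent of the mean) of a member had a median of 3.36% in EV, 3.64% in the *cat-1* RNAi libraries and 5.25% in the *cat-2* RNAi libraries. Over all tested genes the medians were 8.47%, 9.71% and 11.8%. Without replicate 2, the *cat-2* RNAi median was 3.25% for the members and 9.02% for all tested genes. The members are at high levels, where counting error is small, and no genes of matched level were compared. Over all 12 libraries, the highest value of a member was between 1.08 times (*rpn-2*) and 1.45 times (*pbs-4*) its lowest.

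**Figure D2:**
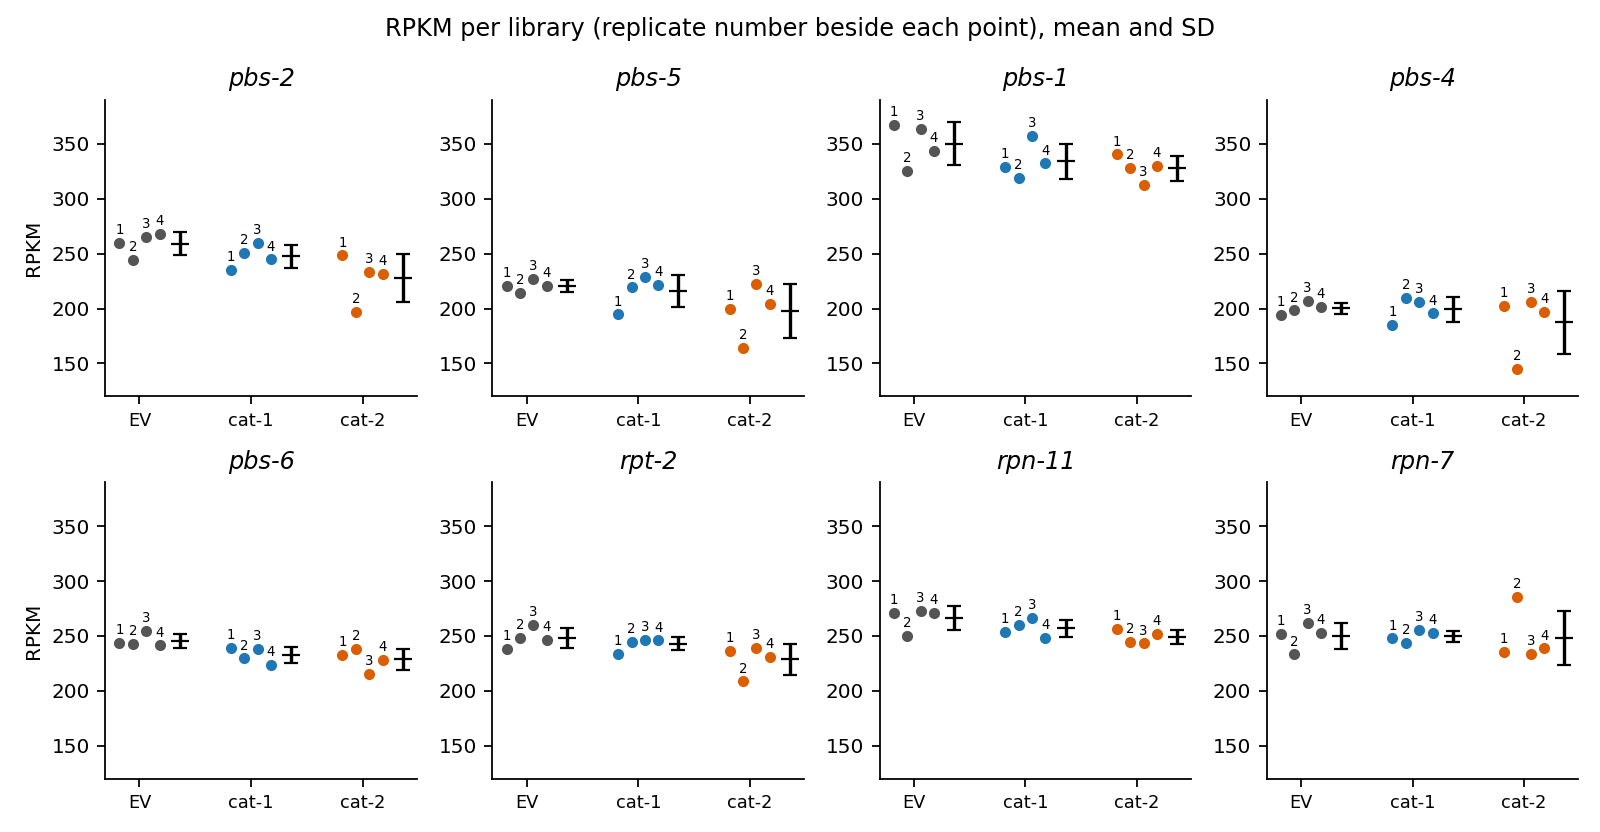
RPKM in each library of 8 proteasome subunit genes, with the replicate number beside each point. Bars are the mean and SD of 4 libraries, and the axis does not start at 0. *cat-2* RNAi replicate 2 lies low for *pbs-2*, *pbs-5*, *pbs-4* and *rpt-2* and high for *rpn-7*.

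Upon *cat-1* RNAi, which was used to ask whether more dopamine in the cytosol brings about cellular stress, no proteasome gene passed the test. Most members lay slightly below EV, with a median log2 fold change of −0.03, or −2.04%, and the span of the single members was −0.08 to 0.01. Leaving out 1 library moved this median by over 1.5 times in 4 cases, to −0.01 without *cat-1* RNAi replicate 1 or EV replicate 3 and to −0.05 without *cat-1* RNAi replicate 3 or EV replicate 2. The most shifted was *pbs-6*, at 233 ± 7.55 RPKM against 246 ± 6.29 RPKM (SD, n = 4 each). Each of the 32 members had a 95% interval that lay within a 1.2-fold change in either direction.

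The test was limma on log2(RPKM + 0.5) with Benjamini-Hochberg adjustment over 13161 genes, and 0 genes (0%) passed an adjusted p of 0.05, members included. At an unadjusted p under 0.05 there were also 0 members, against 3.45% of all tested genes as higher and 2.49% as lower. Of the 32 members, 29 had a log2 fold change below 0 and 3 above 0, where 51.9% of all tested genes were above 0. The median over all tested genes was 0.0039. The 3 members with the smallest p were *pbs-6*, with a log2 fold change of −0.08 (SE 0.0405), *pbs-1*, with −0.07 (SE 0.0492), and *rpn-11*, with −0.05 (SE 0.0400). By limma their unadjusted p were 0.0760, 0.197 and 0.234 and their adjusted p 0.827, 0.890 and 0.895. The SE rest on the spread within all groups, *cat-2* RNAi replicate 2 included. With it the SE was 0.0899 for *pbs-4* and 0.0876 for *rpn-6.2*. Without it, in *cat-2* RNAi against EV, the SE was 0.0443 and 0.0946. The value of *pbs-1* was −0.04 without EV replicate 1 or *cat-1* RNAi replicate 2 and −0.10 without EV replicate 2, and that of *rpn-11* was −0.03 without *cat-1* RNAi replicate 4 and −0.08 without EV replicate 2. *pbs-6* was the one member whose libraries did not overlap EV, which is 3.12% of the members, and 1.65% of all tested genes were separated in this direction. By part of the complex, 13 of 14 core genes and 16 of 18 cap genes were below 0, with medians of −0.03 and −0.02. Members share libraries and scaling, so their signs are not independent of each other. The number below 0 was between 21 (without *cat-1* RNAi replicate 1) and 32 over the alternatives of processing.

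Upon *cat-2* RNAi, which the study used to set aside genes that move with less dopamine release, no proteasome gene passed the adjusted threshold either. Most members again lay below EV, with a median log2 fold change of −0.05, or −3.25%. The beta ring genes lay lowest, with a median of −0.11, or −7.22%, and *pbs-2* was at 228 ± 21.9 RPKM against 259 ± 10.5 RPKM in EV (SD, n = 4 each). *rpn-2* was the one member above 0, at 0.01. It was at −0.0095 without *cat-2* RNAi replicate 2, and *rpn-5* (0.05), *pas-7* (0.01) and *pbs-4* (0.01) were the members above 0. In whole-worm RNA, fewer cells of a type and less RNA per cell cannot be told apart.

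Of all tested genes 4 (0.0304%) had an adjusted p under 0.05 by limma, and of the members 0. At an unadjusted p under 0.05 there were 8 members, all lower, which is 25% of the members. Of all tested genes, 3.95% were lower and 4.89% higher at this threshold. The 8 were *pbs-2*, *pbs-5*, *pbs-6* and *pbs-7* of the beta ring, *pas-1* and *pas-2* of the alpha ring, the ATPase gene *rpt-2* and the deubiquitinase gene *rpn-11*. Their log2 fold changes were −0.09 to −0.19 and their adjusted p by limma was 0.488 to 0.561, so none was called. The number of such members moved with single libraries. The number was 1 with EV replicate 3 left out and 4 with EV replicate 4 left out. Leaving out EV replicate 1, *cat-2* RNAi replicate 2 or *cat-2* RNAi replicate 3 gave 5 each.

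The 3 members with the smallest p were *pbs-2*, *rpt-2* and *pbs-6*. The change of *pbs-2* was −0.19 (log2, SE 0.0624), with a 95% interval from −0.33 to −0.06, an unadjusted p of 0.00851 and an adjusted p of 0.488 by limma. Without *cat-2* RNAi replicate 2 its change was −0.12 (SE 0.0448, adjusted p = 0.532 by limma), smaller by over 1.5 times. *rpt-2* was at 229 ± 13.9 RPKM against 248 ± 9.20 RPKM (SD, n = 4 each), lower by a log2 difference of −0.12 (SE 0.0466), with an adjusted p of 0.518 by limma. Without that library its change was −0.08, again smaller by over 1.5 times. *pbs-6* was at 229 ± 9.69 RPKM against 246 ± 6.29 RPKM (SD, n = 4 each), a change of −0.10 (SE 0.0405, adjusted p = 0.519 by limma), and of −0.12 without that library. The 2 members whose *cat-2* RNAi and EV libraries did not overlap were *pbs-6* and *pas-2*, which is 6.25% of the members, against 2.42% of all tested genes lower in this way.

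In all, 31 of 32 members had a log2 fold change below 0 upon *cat-2* RNAi, where 46.0% of all tested genes did and the median over all tested genes was 0.01. The core genes had a median of −0.09, with all 14 below 0 and 6 of 14 at an unadjusted p under 0.05. The cap genes had a median of −0.04, with 17 of 18 below 0 and 2 of 18 at this threshold. Without *cat-2* RNAi replicate 2, the core median was −0.07 and the cap median −0.05, with 4 and 1 genes at this threshold and 29 of 32 members below 0. For 28 members the 95% interval lay within 1.2-fold of no change, and the other 4 intervals reached down to −0.34. The catalytic subunits *pbs-1* and *pbs-5* had log2 fold changes of −0.09 (SE 0.0492) and −0.17 (SE 0.0765). *pbs-5* was at −0.08 without replicate 2. Beside these values, the summed level of 4 hypodermis and cuticle markers, nearly all of it from the collagen gene *col-19*, was 143.8 to 149.6 RPKM in EV, 129.8 to 148.0 RPKM in the *cat-1* RNAi libraries and 95.1 to 132 RPKM in the *cat-2* RNAi libraries. The lowest of these was replicate 2, and the other 3 were at 125 to 132 RPKM. The sum of 4 body wall muscle markers was 136 to 242 RPKM in EV, where replicate 2 was the highest and the other 3 were at 136 to 148 RPKM, against 140.2 to 151 RPKM upon *cat-1* RNAi and 147 to 156 RPKM upon *cat-2* RNAi. The sum of 8 germline markers was 3457 to 3571 RPKM in EV, 3324 to 3606 RPKM upon *cat-1* RNAi and 3492 to 3619 RPKM upon *cat-2* RNAi. Their part in the result was not tested.

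**Figure D3:**
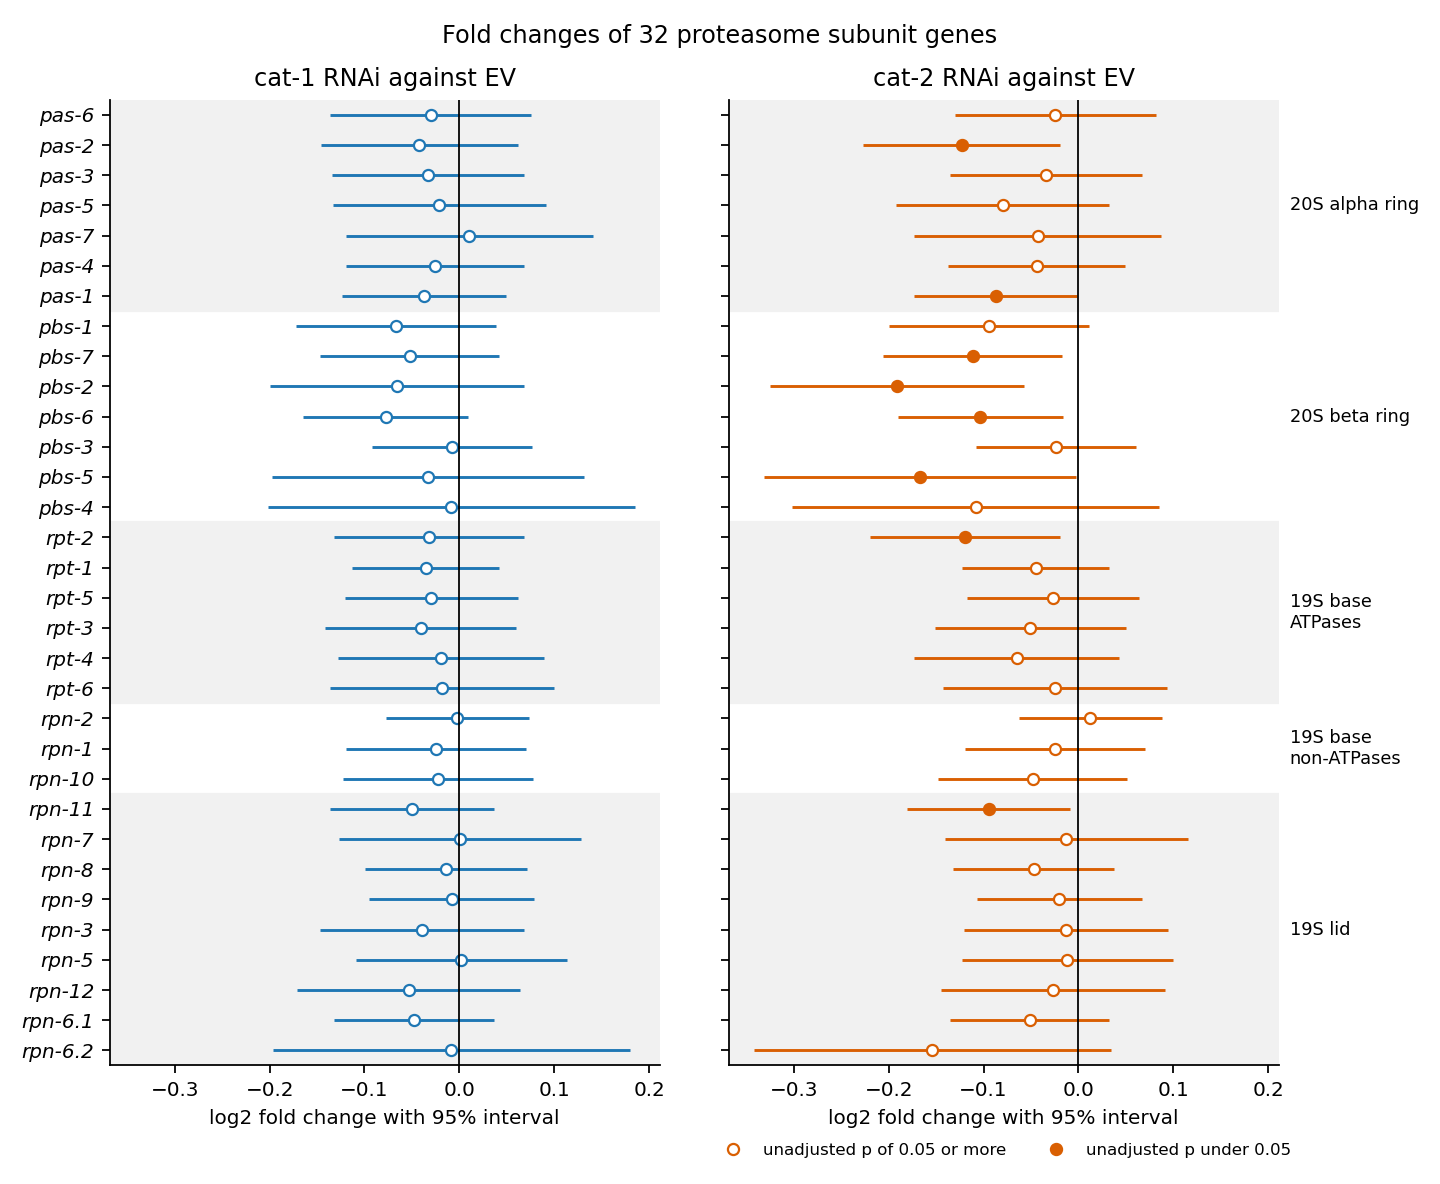
Log2 fold change of each proteasome subunit gene against EV with its 95% interval, *cat-1* RNAi on the left and *cat-2* RNAi on the right. Filled points have an unadjusted p under 0.05 (8 upon *cat-2* RNAi, 0 upon *cat-1* RNAi), and no member had an adjusted p under 0.05. Both comparisons use the same 4 EV libraries.

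Both comparisons share the 4 EV libraries, so a high EV value lowers both fold changes. EV replicate 3 was such a library. Its members had a median of 0.08 (log2) above the mean of the other 11 libraries, and 12 of 32 members were more than 0.1 above. The fold changes of the direct comparison of the RNAi groups do not use EV. Its SE, p and intervals come from the 1 model of 3 groups, so the spread within EV enters them. Here 26 of 32 members were higher in the *cat-1* RNAi libraries than in the *cat-2* RNAi libraries and 6 were below 0, where 51.5% of all tested genes were below 0. The median was 0.02. No member passed the adjusted threshold, and neither did any of the tested genes (0%) by limma. At an unadjusted p under 0.05 there were 0 members, against 3.16% of all tested genes as higher and 3.28% as lower. *pbs-2* had the smallest p, at 0.13 on the log2 scale (SE 0.0624, adjusted p = 0.802 by limma), ahead of *rpt-2* with 0.09 (SE 0.0466, adjusted p = 0.824) and *pbs-5* with 0.13 (SE 0.0765, adjusted p = 0.825). These 3 were at 0.06, 0.04 and 0.05 without *cat-2* RNAi replicate 2, and the smallest p was that of *pas-1*, at 0.08 (SE 0.0361, adjusted p = 0.744 by limma). The interval of 29 members lay within a 1.2-fold change. Without *cat-1* RNAi replicate 3 the median was 0.0030 and the number of members below 0 was 13, and without *cat-1* RNAi replicate 1 the median was 0.04 and the number at an unadjusted p under 0.05 was 3.

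*cat-2* RNAi replicate 2 differed from the other libraries in how the members stood to each other, more than in their sum. The 32 members took 0.8498% of its mapped reads, within the range of the other libraries. The deviation of a member from its mean over the other 11 libraries had an SD over members of 0.163 (log2), against 0.0373 to 0.0847 in the others. Over all tested genes this SD was 0.334 there and 0.244 to 0.275 in the others. Of the members, 10 were more than 0.1 below and 4 more than 0.1 above. The lowest were *pbs-4* (−0.46), *pbs-5* (−0.39) and *pbs-2* (−0.34), followed by *pas-7*, *pas-2* and *rpt-2* (−0.22 each), *pas-5* and *rpn-5* (−0.20 each), *rpn-6.2* (−0.18) and *rpt-4* (−0.16). The 4 above were the lid genes *rpn-7* (0.21), *rpn-3* (0.18) and *rpn-12* (0.18), and *pas-6* (0.12). Apart from *rpn-6.2*, the counting SD of a member was at most 0.0287 on this scale.

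The lid genes differed among themselves in this library. *rpn-5* and *rpn-6.2* lay low (above), *rpn-11* was at −0.08 and *rpn-6.1* at −0.04, and the median of the 9 lid genes was 0.0021. The 3 that lay high are given here in RPKM. *rpn-7*, a lid subunit, was at 235, 285, 234 and 239 RPKM in *cat-2* RNAi replicates 1 to 4, against 233 to 262 RPKM in EV. *rpn-3* was at 196, 226, 195 and 195 RPKM, against 205 ± 4.11 RPKM in EV, and *rpn-12* at 160.2, 180.0, 145 and 157 RPKM, against 163 ± 5.62 RPKM. In this library the mean level of the core genes was 1.203 times that of the cap genes, against 1.27 to 1.33 times in the other 11. Of the other libraries, *cat-2* RNAi replicate 3 had the next widest SD, with *rpn-12* lowest at −0.16 and *pas-7* highest at 0.14. These genes were chosen after their values were seen.

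**Figure D4:**
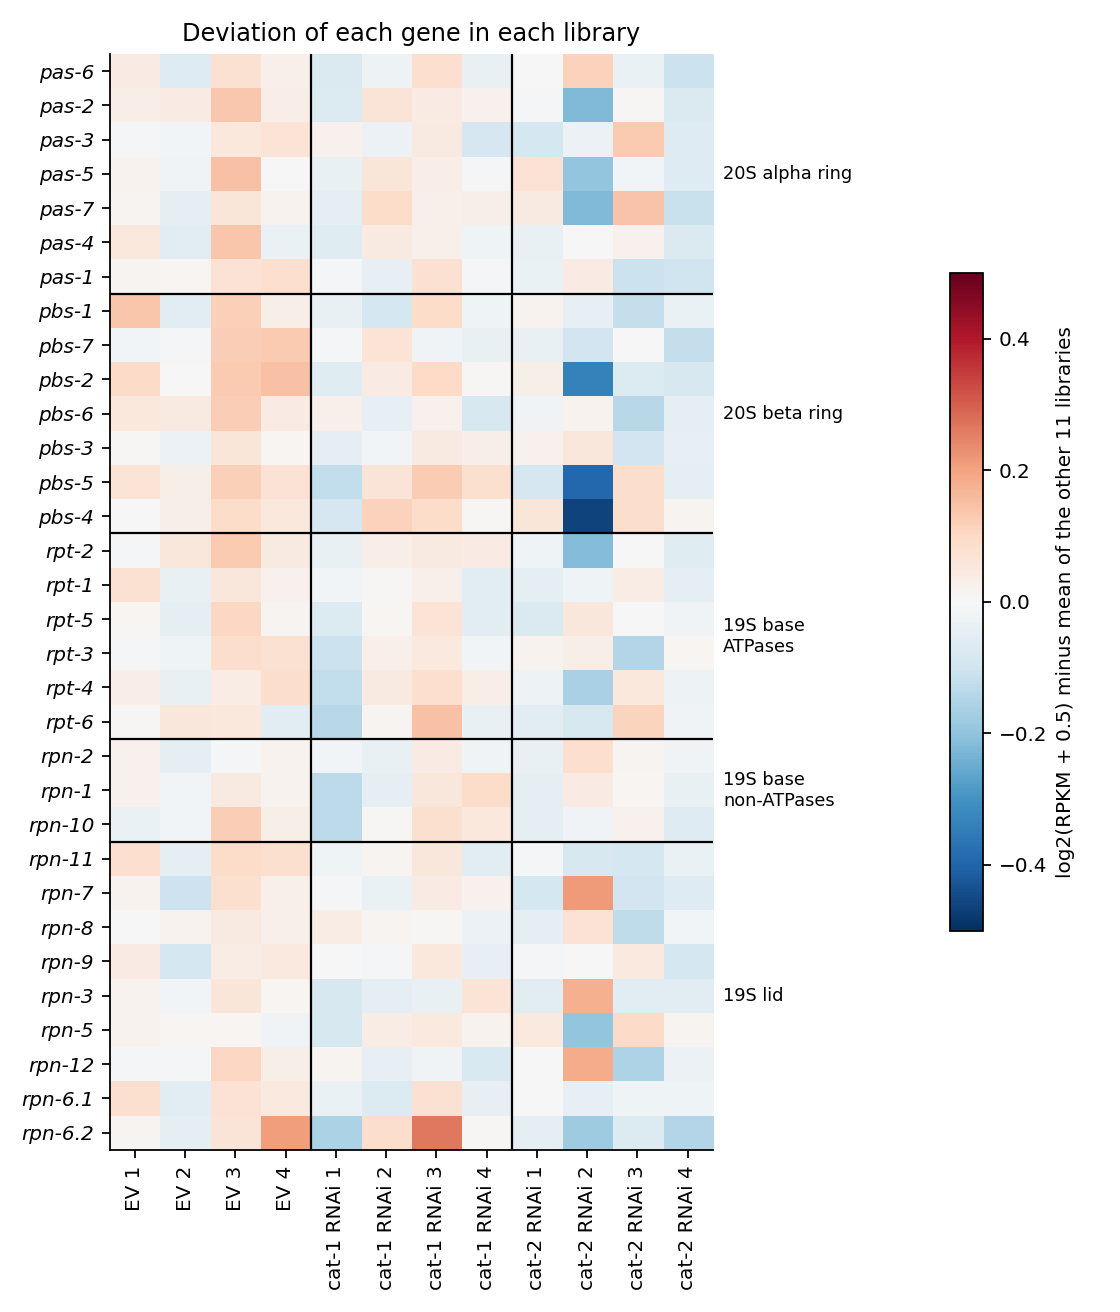
Difference of each proteasome subunit gene in each library from its mean over the other 11 libraries, as log2(RPKM + 0.5), red for higher and blue for lower. Rows are grouped by subcomplex. The column of *cat-2* RNAi replicate 2 runs from −0.46 for *pbs-4* to 0.21 for *rpn-7*, and the highest value of the map is 0.26 for *rpn-6.2* in *cat-1* RNAi replicate 3.

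Feature length moved with the deviations of that library. Over the 13161 tested genes, Pearson's r of log2 length and deviation was 0.28 in *cat-2* RNAi replicate 2 and between −0.13 and 0.08 in the other 11 libraries. Over the 32 members it was 0.21 there, and between −0.63 (EV replicate 3) and 0.34 (*cat-1* RNAi replicate 4) in the others. Genes of 1 library share its depth and preparation, and these values are a description. The part of length in the result was not tested.

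**Figure D5:**
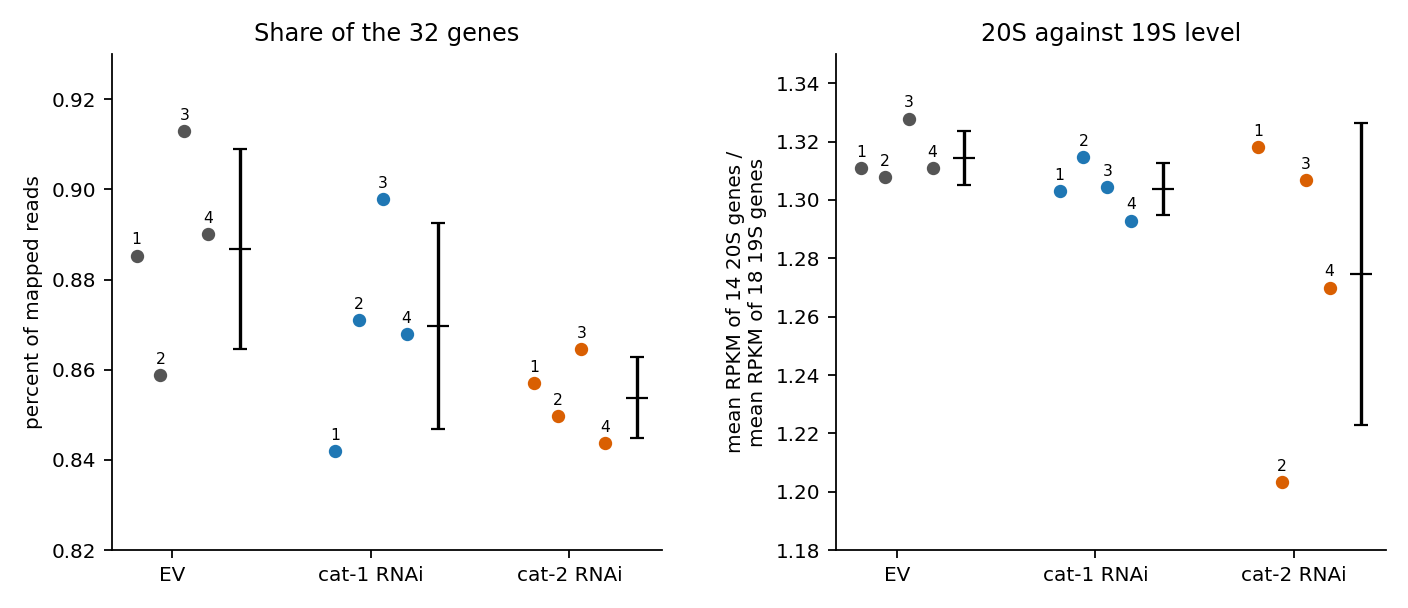
Left, percent of the mapped reads of each library taken by the 32 proteasome subunit genes. Right, mean RPKM of the 14 core genes divided by the mean RPKM of the 18 cap genes. Points carry the replicate number, bars are the mean and SD of 4 libraries, and neither axis starts at 0. The lowest ratio, 1.203, belongs to *cat-2* RNAi replicate 2.

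Within groups the members tended to deviate together. Over the 12 libraries, the deviations from the group mean of 2 members had a median r of 0.30 over 496 pairs, where pairs of all tested genes had a median of 0.03. Without *cat-2* RNAi replicate 2 the median was 0.42 for the members and 0.04 for all pairs. It was then 0.46 within the core, 0.42 within the cap and 0.40 between core and cap. The points are libraries, with the depth and scaling of each shared by all genes. The members are at high levels, where counting error is small, and no pairs of genes of matched level were compared. Whether the higher r is particular to proteasome genes was not tested. The members closest to the median of the others over 12 libraries were *rpn-10*, *rpn-6.2* and *pas-4*, with r of 0.78, 0.78 and 0.77. The lid genes *rpn-8* (−0.26) and *rpn-12* (−0.06) were the least alike. Without *cat-2* RNAi replicate 2, *pas-6* (0.90), *rpt-5* (0.82) and *rpn-10* (0.81) were the closest, and *rpn-8* (−0.24) and *rpn-12* (0.07) again the least alike.

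Among tested genes that are not members, the 5 whose deviations were most like the median member profile over the 12 libraries were *aldo-2*, Y57E12AL.6, E01A2.1, *app-1* and *rps-8*, with Pearson's r of 0.94, 0.90, 0.88, 0.87 and 0.87. *aldo-2* encodes a fructose-bisphosphate aldolase of glycolysis and *rps-8* a ribosomal protein. They were picked as the highest of all tested genes, and so no p is given. Their r were 0.94, 0.93, 0.89, 0.89 and 0.88 without *cat-2* RNAi replicate 2.

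Genes outside the name rule that are linked to the proteasome were described from lists. Of 21 names of proteasome partners, assembly factors, shuttles and ubiquitin supply, 20 were found and tested, and *pomp-1* was not matched. Of these 20, 0 had an adjusted p under 0.05 by limma in any of the 3 comparisons, and before adjustment p was under 0.05 for 1 of them upon *cat-2* RNAi and for 0 in the other comparisons. Their medians were −0.01 upon *cat-1* RNAi and −0.02 upon *cat-2* RNAi against EV. The polyubiquitin gene *ubq-1* was at 788 ± 10.6 RPKM in EV and 804 ± 60.8 RPKM upon *cat-2* RNAi (SD, n = 4 each). The ubiquitin-ribosomal fusion gene *ubq-2* was the one gene of the list at an unadjusted p under 0.05, with 1614 ± 157 RPKM upon *cat-2* RNAi against 1770 ± 24.4 RPKM in EV (SD, n = 4 each; log2 fold change −0.14, SE 0.0596, adjusted p = 0.555 by limma). Its change was −0.08 without *cat-2* RNAi replicate 2 (SE 0.0418, adjusted p = 0.673 by limma), and 0 genes of the list had an unadjusted p under 0.05. *ubq-1* was then at 775 RPKM upon *cat-2* RNAi. *cdc-48.1*, the segregase that pulls tagged proteins from complexes, was at 332 ± 8.33 RPKM upon *cat-2* RNAi against 351 ± 13.6 RPKM in EV (log2 fold change −0.08, SE 0.0463, adjusted p = 0.610 by limma).

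SKN-1A is released from the endoplasmic reticulum with SEL-1 and SEL-11, stripped of its sugars by the glycanase PNG-1 and cut by the protease DDI-1. All 5 genes of this list were tested, and 0 had an unadjusted p under 0.05 in any of the 3 comparisons. The smallest unadjusted p against EV by limma was 0.450 for *png-1* upon *cat-1* RNAi and 0.380 for *sel-11* upon *cat-2* RNAi. *skn-1* was at 81.0 ± 2.68 RPKM in EV, 81.1 ± 1.38 RPKM upon *cat-1* RNAi and 82.9 ± 8.67 RPKM upon *cat-2* RNAi (SD, n = 4 each), and the processing protease gene *ddi-1*, listed as C01G5.6, was at 104 ± 4.105, 104 ± 1.60 and 102 ± 3.97 RPKM in the same groups. SKN-1A is made by the processing of a protein, which transcript levels do not measure. The COP9 signalosome is a complex related to the lid that removes the ubiquitin-like protein NEDD8 from cullins. The 6 of its genes that were listed, *csn-1* to *csn-6*, likewise gave 0 at an unadjusted p under 0.05 in the 3 comparisons. Their medians were −0.0023 upon *cat-1* RNAi and 0.0060 upon *cat-2* RNAi. *csn-6* had the lowest fold change of the list in both, at 64.5 ± 4.03 RPKM upon *cat-1* RNAi and 64.5 ± 2.32 RPKM upon *cat-2* RNAi against 68.6 ± 1.92 RPKM in EV (SD, n = 4 each), with adjusted p of 0.837 and 0.601 by limma.

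The members are spread over the genome, with 10 on chromosome I, 7 on chromosome II, 7 on chromosome III, 5 on chromosome V and 3 on chromosome IV in the annotation of build WBcel235. The closest pair, *pas-4* and *pbs-7* on chromosome I, are 30917 bases apart. The annotated span of 10 members overlaps another protein-coding gene. For *rpt-4* these are *nfyc-1* (71.2 RPKM in EV) and *rpoa-49* (32.1 RPKM), and for *rpt-6* it is *glrx-5* (75.4 RPKM), each on the other strand. *pbs-7* overlaps K07A12.5 (2.76 RPKM) on the same strand. Reads in a shared stretch may belong to the partner, and how far exons overlap was not computed. For *rpt-6* the stretch runs only from 12372582 to 12372607. The length recovered from the RPKM values was 0.776 to 1.28 times the annotated exon length, with a median of 1.01, so that RPKM of a member depends on the gene model that was used.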

How the data were processed

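Poly(A)-selected mRNA of whole worms was sequenced in 12 libraries. The authors mapped paired-end reads with CLC software to build ce11 and deposited 1 table of RPKM per feature and library. Strand, annotation and the handling of multiply mapped reads were not given in the sources used here. Columns with the authors' own means and tests were not used, and 0 columns of other samples were present. Whole reads could be recovered from the deposited RPKM for 100% of the 20423 features above 0 (tolerance 0.0001 reads). Library totals and feature lengths were inferred in this step. Each total was the one met by the most features, in EV replicate 1 by 691 against 629 for the next. The annotated exon length held for 2297 features, and the others took the smallest length that gave whole reads.

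A minimum of 0.5 RPKM in 4 libraries left 13161 genes. log2(RPKM + 0.5), which understates changes of low genes, was fitted with limma 3.58.1 (R 4.3.3; variance trend, robust, 3 groups in 1 model, no block), with Benjamini-Hochberg adjustment within each comparison and 95% intervals of the fit. The fit was tested on simulated data. The labels call the libraries biological replicates. Their sample codes share a letter, A to D, across the 3 groups for each replicate number, and what the letter stands for is not stated. The main model does not use it, and p-values measure the spread between these libraries. Alternatives were other pseudocounts, filters, scalings, weights and models, limma's voom on the recovered reads, a replicate block and leaving out each library. Positions came from Ensembl release 115. Python 3.11.15 was used with pandas 2.3.3, numpy 2.4.6 and scipy 1.17.1.

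The members and lists were chosen with earlier results of these data known. The rule for named genes took the 3 members with the smallest p per comparison, the highest and lowest EV mean of each subcomplex, the catalytic subunits, the *rpn-6* paralogs, up to 3 genes of each other list with the smallest p, and the 5 genes most like the median member. For the other lists it was not followed in full. Genes such as *ufd-1* and *uba-1* had smaller p than *ubq-1* and *dss-1*, which were given instead. Other genes named were chosen after their values were seen.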

Additional observations from a re-analysis of the deposited data

Results flagged for a closer look

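In 96 groups of 4 libraries (32 genes in 3 groups), the gap of the highest or lowest library to its neighbour, as a share of the group's range, exceeded Dixon's 95% critical value in 9. Chance alone gives about 5% of groups. Of the 9, 3 were in *cat-2* RNAi replicate 2, namely *pbs-4* at 144.9 RPKM against 197 to 206 RPKM in the other libraries, *rpn-7* at 285.4 RPKM against 234 to 239 RPKM, and *rpn-3* at 226.3 RPKM against 195 to 196 RPKM. EV replicate 3 was highest for *pas-2* at 286.6 RPKM, against 268 to 270.2 RPKM, and for *pbs-6* at 254.9 RPKM, against 241 to 243 RPKM. EV replicate 2 was lowest for *rpn-11* at 250.0 RPKM, against 271 to 273 RPKM, and for *rpn-9* at 207.5 RPKM, against 225 to 226 RPKM. *rpt-2* was lowest in *cat-1* RNAi replicate 1 at 233.9 RPKM, against 245 to 247 RPKM. *rpt-3* was lowest in *cat-2* RNAi replicate 3 at 188.8 RPKM, against 209 to 211 RPKM.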

How the results depend on the processing

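In all 24 alternatives (12 that leave out 1 library and 12 others), 0 members had an adjusted p under 0.05 in any of the 3 comparisons, and the smallest adjusted p of a member was 0.302. The median log2 fold change of the members was −0.05 to −0.01 upon *cat-1* RNAi, −0.07 to −0.04 upon *cat-2* RNAi, and 0.0030 to 0.04 between the RNAi groups. At an unadjusted p under 0.05, 1 member appeared upon *cat-1* RNAi with median ratio, upper quartile or trimmed mean scaling and with library weights. Upon *cat-2* RNAi the number was 1 to 8 leaving out 1 library, and between the RNAi groups it was 0 to 3. The members below 0 between the RNAi groups numbered 4 to 13 leaving out 1 library and 3 with median ratio or trimmed mean scaling. Over all tested genes, the 4 called upon *cat-2* RNAi became 1 with a pseudocount of 0.1, 0 with no filter, 2 with median ratio or trimmed mean scaling, 9 with library weights, 1 with 2 groups in the model and 0 to 8 leaving out 1 library. Upon *cat-1* RNAi 0 to 1 were called leaving out 1 library. Between the RNAi groups it was 1 with library weights, 1 with voom and 0 to 2 leaving out 1 library. The cause of these shifts was not tested. With the replicate number as a block, 0 genes were called upon *cat-2* RNAi and 6 members had an unadjusted p under 0.05. Between groups, deviations of libraries with the same number had correlations of −0.06 to 0.19. Those of libraries with different numbers had correlations of −0.24 to 0.18. These overlapping ranges cannot tell whether libraries of the same number were prepared together, and this was not tested. Voom on the recovered reads also called 0 members, and before adjustment p was under 0.05 for 0 members upon *cat-1* RNAi, 7 upon *cat-2* RNAi and 1 between the RNAi groups. Depth limits *rpn-6.2*, with 315 to 466 reads per library, more than the other members, with 2523 to 12321 reads.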
